A study of Homo sapiens with 6 samples.

Results

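The response described here is the change in gene expression over 24 h with TGF-beta in HepG2 cells transfected with siRNA against HNF4A. It was read from 2 of the 6 arrays of the study, the siHNF4A array at 24 h and the siHNF4A array at 0 h, and the 1.5 h array of the same arm stood beside them. HepG2 is a hepatoblastoma line of human origin with much of the secretory and metabolic programme of hepatocytes. An siRNA directs the degradation of transcripts that match its sequence, and HNF4A is a nuclear receptor that drives much of the hepatocyte gene programme. The cells received either siRNA against HNF4A (siHNF4A) or control siRNA (siControl), and each arm had 1 array without TGF-beta (0 h), 1 array after 1.5 h and 1 array after 24 h with TGF-beta at 3 ng/ml. There was no array of cells kept for 24 h without TGF-beta, so the time in culture and the ligand cannot be told apart. An siRNA can also lower other transcripts than its target, and the labels do not say how many siRNA sequences each arm received, so such effects were not separated.

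TGF-beta binds a pair of serine/threonine kinase receptors that phosphorylate SMAD2 and SMAD3, and these enter the nucleus with SMAD4 and act with partner factors such as AP-1. In epithelial cells the pathway is known for halting the cell cycle, for raising matrix proteins and their modifying enzymes, and for epithelial-mesenchymal transition, in which cells lose junctions and gain motility. In hepatocytes HNF4A is known as a keeper of the differentiated state.

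Each value is a signal, the brightness of the probe set of a gene on a linear scale, taken per gene from the probe set with the highest mean over the 6 arrays. Differences are log2 of the 24 h signal minus log2 of the 0 h signal, so a difference of 1 is 2-fold, and signals under 12.9, the median of all signals, were first set to that floor. A difference against a signal at the floor is written as "at least". Where a value is averaged over all probe sets of a gene, each probe set counts alike. Probe sets at the floor on both arrays are included and add no difference. Whether an average was small for that reason or because probe sets disagreed was not tested. With 1 array a side, 2-fold counts are descriptions with no test. A limma fit over all 6 arrays tested the same contrast, with the siRNA, the time and a term for the siRNA at 24 h. Its spread came from 1 residual degree of freedom, the disagreement of the arms over 1.5 h, and 8.398 prior degrees of freedom shared among genes. Below, "rose" and "fell" are used only for genes with a limma adjusted p under 0.05 over the 11921 genes tested. Without limma's intensity trend no gene passed for this contrast (2240 genes had an unadjusted p under 0.05, and the smallest adjusted p was 0.0626), so these calls depend on the trend.

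The 6 arrays correlated at 0.944 to 0.986, and the siHNF4A arrays at 24 and 0 h at 0.96. The arrays of this contrast had GAPDH 3' to 5' signal ratios of 0.946 and 0.952. Their ACTB ratios were 1.169 at 24 h and 1.281 at 0 h, the lowest and the highest of the 6 arrays, and the part of this in the results was not tested. The siControl 0 h array stood apart in 2 control values: a ribosomal RNA control probe set read 8599.7, against 69.8 to 736.5 elsewhere, and its GAPDH ratio was 0.888, against 0.946 to 0.977. Every siControl difference rests on that array unless the 1.5 h array is named as its reference. It also enters the limma estimates for siHNF4A through the 1.5 h term that the arms share: FOLR1 was fitted at 0.80, against 0.23 from the 2 siHNF4A arrays. Without it the model would have no residual degrees of freedom, so no such fit was run. All 10 hepatocyte or hepatoblastoma markers were measured: ALB read 8509 at 0 h and 9727 at 24 h in siHNF4A, 8 of the 10 did not pass limma, and TTR and FGB fell, to 491.8 and 837.3. Of the markers of other cell types, 1 of 5 endothelial markers (PECAM1), 2 of 7 fibroblast or stellate markers (PDGFRB and DES) and 3 of 6 blood cell markers (CD3E, LYZ and HBB) entered the tests. LYZ, lysozyme, was bright, at 2396.3 at 0 h and 2207.8 at 24 h, and PECAM1 read 65.7 and 98.0, while PDGFRB, DES, CD3E and HBB read at most 47.9 on these 2 arrays. Of the others, PTPRC, VWF, CDH5, KDR, TEK, DCN, LUM, PDGFRA, COL3A1 and THY1 were below the floor on average.

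Over 24 h in siHNF4A cells, genes of matrix remodelling, secreted signals and the immediate-early class were higher and genes of DNA replication and mitosis were lower. In all, 1087 of 11921 genes (9.12%) differed by at least 2-fold, 537 higher (4.5%) and 550 lower (4.61%). By limma 753 genes changed (6.32%), 379 upward (3.18%) and 374 downward (3.14%), with a smallest adjusted p of 0.0001637. Of the 537 and 550 genes, 286 and 268 also passed limma. The fold steps thinned unevenly: 69 genes were at least 4-fold higher and 21 at least 4-fold lower, and 13 were at least 8-fold higher and 1 at least 8-fold lower. Among the 2-fold genes, 94 of those higher and 87 of those lower had 1 of the 2 arrays at the floor. Just inside the threshold lay NRG1 at 1.0 and LOC100507395 at -1.0, and just outside PTPRF at 0.999 and TOR2A at -0.998. Where a 2-fold gene had other probe sets above the floor, 615 of these 704 (87.36%) had the same direction. At 1.5 h 239 genes (2%) differed 2-fold from the same 0 h array.

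The siControl arm, which shares no array with this one, gave 681 genes at 2-fold (5.71%), 371 higher (3.11%) and 310 lower (2.6%). Of the 537 genes higher in siHNF4A, 474 (88.27%) were also higher in siControl and 199 (37.06%) reached 2-fold there. Of the 550 lower genes, 476 (86.55%) were also lower in siControl and 144 (26.18%) reached 2-fold. From the other side, these 199 and 144 genes were 53.64% and 46.45% of the siControl lists. The median difference of the 537 genes was 1.32 in siHNF4A, where they were chosen, and 0.84 in siControl, and that of the 550 genes was -1.25 and -0.68. Such a gap is partly set by the choice: the 371 siControl genes had a median of 1.26 there and 1.06 in siHNF4A. With the siControl 1.5 h array as the siControl reference, an alternative added after the data were seen, 459 and 468 of these genes shared the direction and 202 and 143 reached 2-fold. Of the 343 genes past 2-fold the same way in both arms, 237 had the greater difference in siHNF4A, and from the siControl 1.5 h array 219 of 345 did. Across genes the 2 arms' differences had a Pearson r of 0.595 and a Spearman rho of 0.551 (0.566 and 0.535 from the siControl 1.5 h array), a description only, as genes share arrays and are not independent.

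**Figure D1:**
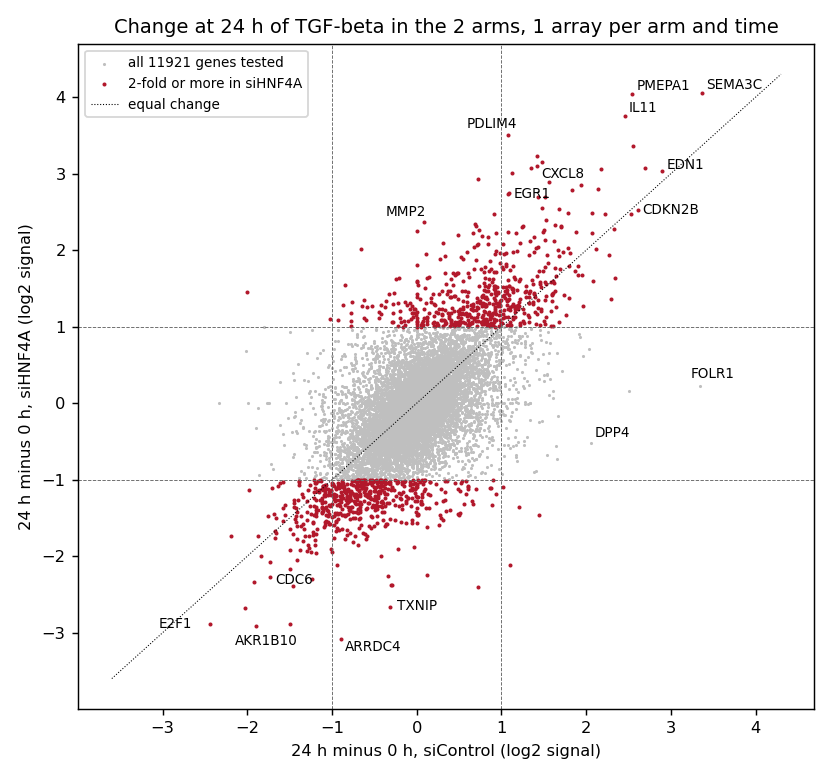
Change over 24 h with TGF-beta for each of 11921 genes, as log2 differences of 1 array against 1 array, in siControl (horizontal) and siHNF4A (vertical); red points are the 1087 genes at 2-fold or more in siHNF4A, dashed lines mark 2-fold and the dotted line equal change. Most red points share the sign of the siControl change, and FOLR1, DPP4 and TXNIP lie far from the dotted line.

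Among ligands of the TGF-beta family and proteins that bind them, 7 of 18 measured genes were at least 2-fold higher and 2 lower, with a median difference of 0.61 against -0.05 over all genes, and 8 rose and none fell by limma. LTBP2, which belongs to the family of proteins that hold latent TGF-beta in the matrix, went from 24.4 at 0 h and 34.7 at 1.5 h to 175.9 at 24 h, a difference of 2.85. LEFTY1, a secreted inhibitor of Nodal signalling, went from 18.5 to 92.1 (2.32), and FSTL3, a follistatin-like binder of activins, from 115.2 to 442.6 (1.94). INHA, the inhibin alpha subunit, rose from 63.0 to 218.8 (1.80), and GDF15, a stress-responsive family member, from 2552 to 7350 (1.53). All 5 rose by limma, and GDF15 stood at 0.69 when averaged over all probe sets. TGFB1 itself read 434.7 at 0 h and 712.2 at 24 h (0.71), which did not pass. INHBB, an inhibin and activin subunit, had a difference of -1.19 in siHNF4A and 0.93 in siControl (-0.01 from the siControl 1.5 h array), with no pass in either the arm or the difference between arms.

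The receptors and signalling Smads moved little on this scale: 1 of 14 measured genes was 2-fold higher, none was 2-fold lower, and the median was 0.27. The one that rose was BMPR2, a type II receptor for BMPs, at 181.7, 182.4 and 500.6 at 0, 1.5 and 24 h. TGFBR2, the type II receptor that binds TGF-beta, read 2764 at 0 h and 3908 at 24 h (0.50), and SMAD3 read 102.3 and 132.9 (0.38).

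Feedback genes and corepressors of the pathway had 4 of 12 members 2-fold higher and none lower, and the same 4 rose by limma. From the siHNF4A 1.5 h array 1 was 2-fold higher and 1 lower. PMEPA1, a membrane protein that keeps Smads from the receptor, had signals of 17.0, 21.9 and 279.8 at 0, 1.5 and 24 h in siHNF4A and of 2.6, 7.8 and 75.3 in siControl. Its 0 and 1.5 h signals were near the floor in siHNF4A and below it in siControl. The siHNF4A signal was the higher one at each time, and the difference was 4.04, 16.5-fold (limma estimate 3.95, standard error 0.38, adjusted p = 0.000966). SMURF2, a ubiquitin ligase that targets receptors and Smads, rose from 556.5 to 1232 (1.15). SKIL, which encodes the corepressor SnoN, rose from 487.6 to 1005 (1.04), and TGIF1, another corepressor, from 682.2 to 1377 (1.01). SMAD7, the inhibitory Smad, had another course, at 316.3, 693.0 and 260.5. It was highest at 1.5 h, and its 24 h difference of -0.28 did not pass. Of the 4 ID genes, inhibitors of basic helix-loop-helix factors, ID4 fell from 117.5 to 41.8 (-1.49, or -0.63 averaged over all probe sets), while ID1, ID2 and ID3 read 0.43, 0.24 and -0.34 and did not pass.

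Of 25 measured genes known as direct targets of TGF-beta, 12 were at least 2-fold higher, none was 2-fold lower, and the median was 0.97; with averaged probe sets 7 of 24 were higher. All 25 had a 24 h signal above that at 0 h, as did 5410 of all 11921 genes, and 13 rose by limma. IL11, a secreted cytokine of the gp130 group, was at 150.3, 184.8 and 2027 in siHNF4A and at 28.5, 28.2 and 156.5 in siControl. The siControl signal at 24 h was thus near the siHNF4A signal at 0 h, and the siHNF4A difference was 3.75, 13.5-fold (limma estimate 3.67, standard error 0.28, adjusted p = 0.000308). EDN1, the precursor of the vasoconstrictor endothelin-1, went from 69.1 through 228.9 to 567.8 (3.04) and was already higher at 1.5 h. BHLHE40, a transcriptional repressor of the circadian and hypoxia responses, went from 209.0 through 833.3 to 1444 (2.79), a difference of 0.79 from 1.5 h. CCN1, a matricellular protein, rose from 631.6 to 4092 (2.70). CDKN2B, which encodes the CDK4 and CDK6 inhibitor p15, was at 60, 55.2 and 344.1 (2.52), with 2.61 in siControl, or 2.20 from the siControl 1.5 h array. Members with little difference at 24 h were KLF10 at 571.5, 1346 and 588.1, highest at 1.5 h, and CCN2, a matricellular relative of CCN1, at 2994 and 3574 (0.26).

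**Figure D2:**
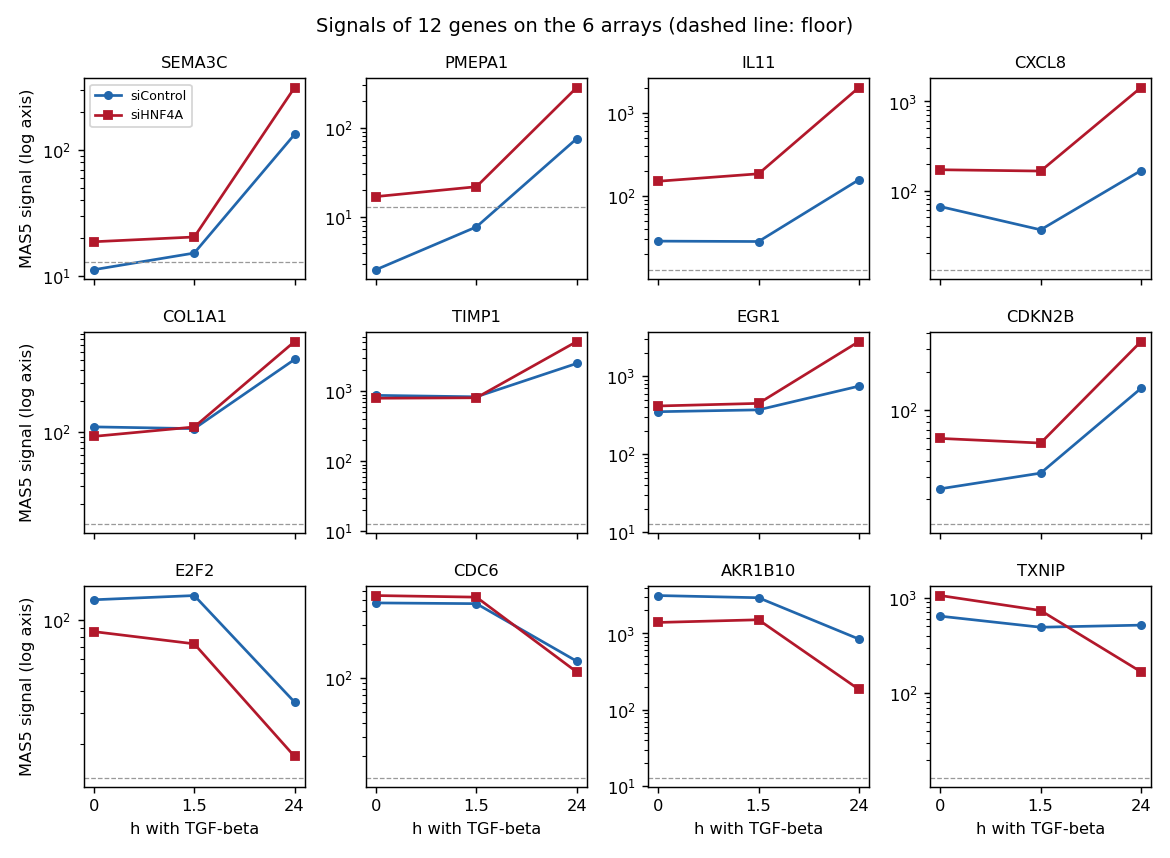
MAS5 signals (log axis) of 12 genes at 0, 1.5 and 24 h with TGF-beta, siControl in blue circles and siHNF4A in red squares, 1 array per point; the dashed line is the floor of 12.9. Of these genes, 8 were higher at 24 h and 4 lower in siHNF4A, and none of them reached 2-fold at 1.5 h in that arm.

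Immediate-early genes, which respond to growth factor and stress signals through kinase cascades, and the feedback genes of these cascades had 14 of 25 measured members 2-fold higher, none 2-fold lower, and 13 rises by limma. Their median was 1.14 in siHNF4A and 0.59 in siControl (0.58 from the siControl 1.5 h array). EGR1, a zinc finger factor of the class, was at 416.3, 449.5 and 2789 in siHNF4A. Its relative EGR3 was at 10.5, 19.1 and 115.1, at least 3.16 higher at 24 h. DUSP1 and DUSP5, phosphatases of MAP kinases, rose from 430.2 to 1958 (2.19) and from 102.7 to 431.2 (2.07). IER3 rose from 2424 to 9674 (2.0). JUNB, an AP-1 subunit, was at 59.8, 355.3 and 295.9 and so was highest at 1.5 h, with a difference of -0.26 from there to 24 h. SPRY4 and DUSP6, which dampen the ERK cascade, rose by differences of 1.98 and 1.74. FOS read 33.3, 21.7 and 83.8 (1.33) and did not pass, ATF3 rose (1.18, or 0.62 averaged over all probe sets), and MYC read 2140 and 2797 (0.39) without a pass.

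All 25 of these genes had the greater log2 difference in siHNF4A than in siControl, against 47.4% of all genes. With the 1.5 h arrays as the reference in both arms, which leaves out the siControl 0 h array, 23 of 25 did. Over all 11921 genes 6082 did. The list was written with earlier results of these data known, and 24 of its 25 genes were higher in siHNF4A at 24 h. Its genes also share the same arrays, so these counts are descriptions and not independent evidence. Among the 343 genes past 2-fold the same way in both arms, 237 had the difference of greater size in siHNF4A. By limma's test of the difference between arms, 12 of the 25 had an unadjusted p under 0.05 and none an adjusted p under 0.05; over all 11921 genes these numbers were 541 and 0. EGR1 read 351.5 at 0 h and 747.0 at 24 h in siControl, and its difference between arms was 1.66.

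**Figure D3:**
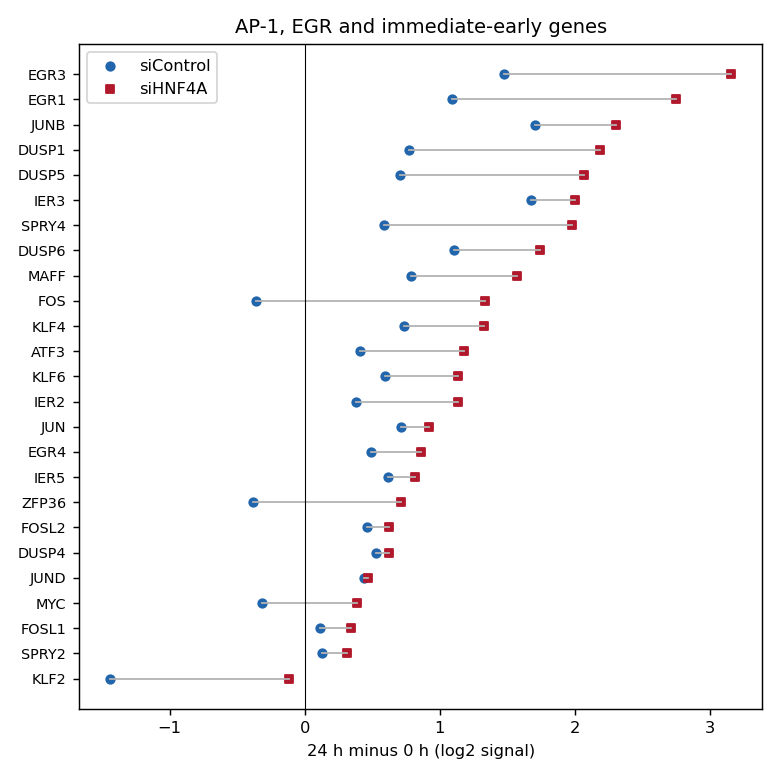
Log2 difference of 24 h against 0 h for the 25 measured AP-1, EGR and immediate-early genes, siControl in blue circles and siHNF4A in red squares, 1 array against 1 array; a grey line joins the 2 values of a gene. Every red square lies to the right of its blue circle, and 14 of them lie at 1 or above.

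Matrix genes were higher in part. Of 30 measured collagens, laminins and matrix glycoproteins, 10 were 2-fold higher and none 2-fold lower, with a median of 0.39, and 10 rose by limma. COL1A1, the alpha 1 chain of type I collagen, was at 90.9, 112.2 and 757.9 in siHNF4A and at 112.4, 108.1 and 508.0 in siControl. Both arms were flat to 1.5 h and higher at 24 h, and the siHNF4A difference was 3.06, 8.34-fold (limma estimate 2.97, standard error 0.26, adjusted p = 0.000724). BGN and SPOCK1, matrix proteoglycans, rose from 14 to 67.1 (2.26) and from 19.0 to 89.3 (2.23), and VCAN, a large proteoglycan, from 270.6 to 1100 (2.02). FN1, fibronectin, read 7663 and 9526 (0.31), near the top of the signal range, and did not pass.

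Enzymes that cut or cross-link matrix, with their inhibitors, had 13 of 28 measured members 2-fold higher and none lower, a median of 0.90, and 12 rises by limma; with averaged probe sets 8 of 27 were 2-fold higher. KLK6, a secreted serine protease, went from 18.2 to 186.8 (3.36). TIMP1, an inhibitor of metalloproteinases, was at 798.9, 811.1 and 5154 (2.69). PLAU, the urokinase plasminogen activator, rose from 31.4 to 155.4 (2.31), and ADAM19, a membrane metalloproteinase, from 51.2 to 225.0 (2.14, or 0.96 averaged over all probe sets). MMP2, a gelatinase, was at 40.6, 31.5 and 209.0 in siHNF4A and at 35.8, 31.8 and 37.9 in siControl. Only its siHNF4A 24 h array was above 40.6, and its difference of 2.36 rose by limma in siHNF4A (adjusted p = 0.00487) against 0.08 in siControl; the difference between arms had an unadjusted limma p of 0.000468 and an adjusted p over 0.05. Averaged over all its probe sets the siHNF4A difference of MMP2 was 0.83. The lysyl oxidases LOXL2 and LOXL4, which cross-link collagen, rose by 1.94 and 1.79, and averaged over all probe sets stood at 0.49 and 0.90.

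Of 40 measured actin cytoskeleton and focal adhesion genes 11 were 2-fold higher and none lower, and 11 rose by limma; with averaged probe sets 7 of 38 were higher. The 11 genes 2-fold higher include S100A3, a calcium-binding protein and not a structural part of actin filaments or adhesions. S100A3 went from 59.3 to 497.2 (3.07). TAGLN, the smooth muscle actin binder transgelin, went from 227.5 to 1060 (2.22). Without _x_at and _s_at probe sets, which can match several genes or transcripts, TAGLN stood at 0.59. TGFB1I1, the focal adhesion protein Hic-5, went from 64.5 to 261.9 (2.02). ACTA2, smooth muscle actin, read 314.1 and 290.0 and did not pass. The median of the list was 0.38 in siHNF4A and 0.53 in siControl (0.61 from the siControl 1.5 h array). PDLIM4, a PDZ and LIM domain protein of actin filaments outside the list, was at 22.3, 35.6 and 252.4 in siHNF4A and at 27.7, 18.5 and 58.7 in siControl, a difference of 3.50 against 1.08. This was an _x_at probe set, and without such probe sets the siHNF4A difference of PDLIM4 was 0.44. Of 10 measured integrins, receptors for matrix, 3 were 2-fold higher and none lower, and 4 rose by limma: ITGA2 rose from 985.4 to 2537 (1.36), ITGAV rose from 2761 to 5595 (1.02), and ITGB2 read 13.5 and 30.6 (1.18) without a pass.

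Epithelial junction genes and keratins went both ways, with 5 of 29 measured members 2-fold higher and 2 lower, and 7 rises and 2 falls by limma; with averaged probe sets 2 of 28 were higher. CDH1, the gene of E-cadherin, was at 132.2, 152.0 and 521.5 in siHNF4A, a difference of 1.98, and its difference in siControl was 1.73, or 1.38 from the siControl 1.5 h array. CLDN6 and CLDN4, tight junction proteins, rose by 1.48 and 1.07, and DSC2, a desmosomal cadherin, rose from 826.2 to 1905 (1.21); averaged over all probe sets CLDN4 and DSC2 stood at 0.54 and 0.95. GJB1, the hepatocyte gap junction protein connexin 32, fell from 208.9 to 92.9 (-1.17), and PKP2, a desmosomal plakophilin, from 307.3 to 153.2 (-1.0, or -0.54 averaged over all probe sets). Of 11 measured transcription factors and markers of epithelial-mesenchymal transition 4 were 2-fold higher and rose by limma: SOX4 from 1284 to 4039 (1.65), GLIPR1 (1.59), S100A4 from 191.9 to 552.2 (1.52) and ZEB1, a repressor of E-cadherin, from 228.3 to 499.8 (1.13, or 0.79 averaged over all probe sets). VIM, vimentin, was near the floor at 27.4 and 25.8. Among 14 progenitor and biliary markers SOX4, the cholangiocyte keratin KRT19 (3200 to 6588, 1.04, or 0.52 averaged over all probe sets) and the stem cell surface protein PROM1 (104.4 to 259.5, 1.31) were 2-fold higher, none was 2-fold lower, and 5 rose by limma.

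Secreted growth and vascular signals had 11 of 33 measured members 2-fold higher, none 2-fold lower and 11 rises. SEMA3C, a secreted semaphorin, had the largest difference of all genes above the floor on both arrays. It was at 18.8, 20.5 and 312.3 in siHNF4A and at 11.3, 15.3 and 133.0 in siControl, a difference of 4.05, 16.6-fold (limma estimate 4.08, standard error 0.36, adjusted p = 0.000724). Its first 2 signals in each arm were near the floor. PDGFB, a platelet-derived growth factor chain, rose from 23.7 to 108.6 (2.20), and IGFBP3, a binder of insulin-like growth factors, from 21.0 to 77.3 (1.88).

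Cytokines, chemokines and NF-kB feedback genes had 4 of 31 measured members 2-fold higher and 2 lower, with 6 rises and 1 fall by limma. Besides IL11, CXCL8, the neutrophil chemokine interleukin-8, was at 171.1, 165.4 and 1435 in siHNF4A and at 66.0, 36.2 and 167.5 in siControl. As for IL11, the siControl signal at 24 h was near the siHNF4A signal at 0 h, and the siHNF4A difference was 3.07 (limma estimate 2.86, standard error 0.31, adjusted p = 0.00174). LIF, another cytokine of that group, read 51.9 and 136.4 (1.39) and did not pass. NFKBIZ, a nuclear regulator of NF-kB, fell (-1.35, or -0.92 averaged over all probe sets), and SOCS1, an inhibitor of cytokine signalling, read 45.1 and 17.0 (-1.41) without a pass. SOCS1 stood at -0.27 averaged over all probe sets and at -0.41 from the siHNF4A 1.5 h array. The promoters of IL11 and CXCL8 were picked among those that hold the AP-1 letters TGACTCA or TGAGTCA within 250 bases before the start. These 2 genes also had the largest rises of the cytokine list. Both promoters therefore carry the letters by choice, which does not link the letters to the rises. They are read on the strand of the gene, from RefSeq on GRCh38.p14, at chr19:55370464-55370713 for IL11 (minus strand) and chr4:73740319-73740568 for CXCL8 (plus strand). Capitals mark the AP-1 letters and, in IL11, CCAAT.
IL11: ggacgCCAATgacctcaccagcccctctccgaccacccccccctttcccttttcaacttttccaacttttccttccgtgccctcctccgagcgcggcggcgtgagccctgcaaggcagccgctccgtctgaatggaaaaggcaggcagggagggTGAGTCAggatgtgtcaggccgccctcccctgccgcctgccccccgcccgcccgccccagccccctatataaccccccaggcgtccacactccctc
CXCL8: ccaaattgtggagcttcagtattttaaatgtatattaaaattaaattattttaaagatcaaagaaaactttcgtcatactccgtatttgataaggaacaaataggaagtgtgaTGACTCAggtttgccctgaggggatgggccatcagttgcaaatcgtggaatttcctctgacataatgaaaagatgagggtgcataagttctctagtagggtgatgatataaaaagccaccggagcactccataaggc
The AP-1 letters stood in 22 of 414 promoters of 2-fold higher genes (5.31%), in 8 of 443 of 2-fold lower genes (1.81%) and in 229 of 9736 of all genes tested with a promoter in the table (2.35%). The letters CAGACA, the core that Smads bind, stood in 12.8%, 9.93% and 9.7% of the same promoters. By list, CAGACA stood in 0 of 16 promoters of direct targets, 0 of 19 of immediate-early genes and 9 of 40 of replication genes (22.5%), and the AP-1 letters in 1 of 16, 0 of 19 and 0 of 40. These shares count letters on both strands of the first listed start of a gene and were not tested.

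The lists with the greatest shares of lower genes were those of the cell cycle. Of the regulators of G1, CDKN2B and the D cyclin CCND2 (82.7 to 204.2, 1.30, or 0.84 averaged over all probe sets) were 2-fold higher among 8 measured CDK inhibitors and D cyclins, of which 3 rose by limma, and CDKN1A, the gene of p21, rose from 774.5 to 1511 (0.96). In the G1/S and E2F network none of 26 measured members was 2-fold higher and 11 were 2-fold lower, with a median of -0.67 and 10 falls by limma; with the floor at the 75th percentile of signals 4 of 20 were lower. E2F1, the founding activator E2F, was at 95.5, 91.6 and 12.4, the last below the floor, so it fell by 2.89 or more. E2F2 was at 85.9, 73.3 and 17.0 (-2.34, or -0.92 averaged over all probe sets), and SKP2, the ubiquitin ligase subunit that degrades p27, at 652.6, 678.5 and 154.7 (-2.08). CCNE2, an E cyclin, fell from 111.2 to 37.7 (-1.56) and E2F8, a repressor E2F, from 70.0 to 24.1 (-1.54), both under 2-fold at that higher floor.

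DNA replication and nucleotide synthesis had the lowest list median, -1.21 in siHNF4A and -1.08 in siControl (-0.92 from the siControl 1.5 h array), with 32 of 46 members 2-fold lower and 1 higher, and 32 falls and 1 rise by limma. CDC6, which loads the replicative helicase with CDT1, was at 546.4, 528.8 and 113.5 in siHNF4A and at 469.6, 462.5 and 141.6 in siControl. Both arms were flat to 1.5 h and low at 24 h, and the siHNF4A difference was -2.27 (limma adjusted p = 0.000966). The helicase subunit MCM2 fell from 1071 to 283.4 (-1.92), CDT1 from 264.2 to 70.5 (-1.91) and the GINS subunits GINS4 and GINS2 by differences of -1.79 and -1.77, with GINS4 at -0.84 when averaged over all probe sets. The exception was RFC5, a clamp loader subunit, which rose from 354.8 to 841.8 (1.25) while RFC2, RFC3 and RFC4 fell. Its direction depended on the probe set chosen: averaged over all probe sets of RFC5 the difference was -0.44. The DNA repair and checkpoint list had 10 of 27 measured members 2-fold lower, none higher and 10 falls by limma, led by the nuclease EXO1, which fell from 127.4 to 30.7 (-2.05, or -0.66 with the higher floor).

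Mitosis, spindle and kinetochore genes had a median of -1.09 in siHNF4A and -0.77 in siControl (-0.74 from the siControl 1.5 h array), and 35 of 59 were 2-fold lower, none 2-fold higher, with 45 falls by limma. CDCA5, the cohesin regulator sororin, fell from 315.4 to 83.0 (-1.93). PLK1, a mitotic kinase, was at 702.3, 497.8 and 189.2 (-1.89), CCNA2, cyclin A, at 866.6, 756.1 and 264.6 (-1.71), and KIF11, the spindle motor Eg5, at 365.9, 374.6 and 112.1 (-1.71). MKI67, the gene of the proliferation antigen Ki-67, was at 276.8, 255.5 and 88.2 (-1.65). BUB3, a checkpoint protein, was the one member with a higher 24 h signal, 2010 against 2380 (0.24), and did not pass. In this list 50 of 59 genes had the lower log2 difference in siHNF4A and 9 (15.3%) the higher one. From the 1.5 h arrays 11 of 59 had the higher one. Over all genes, most of them within 2-fold, 47.4% had the higher one. The mitosis list was written with earlier results of these data known, and 58 of its 59 genes were lower in siHNF4A at 24 h. Such a choice can itself favour siHNF4A: the 550 genes chosen as 2-fold lower there had medians of -1.25 in siHNF4A and -0.68 in siControl. Genes of the list also share the same arrays, so its counts are descriptions and not independent evidence. None of the 59 passed limma's test of the difference between arms, and 7 had an unadjusted p under 0.05.

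**Figure D4:**
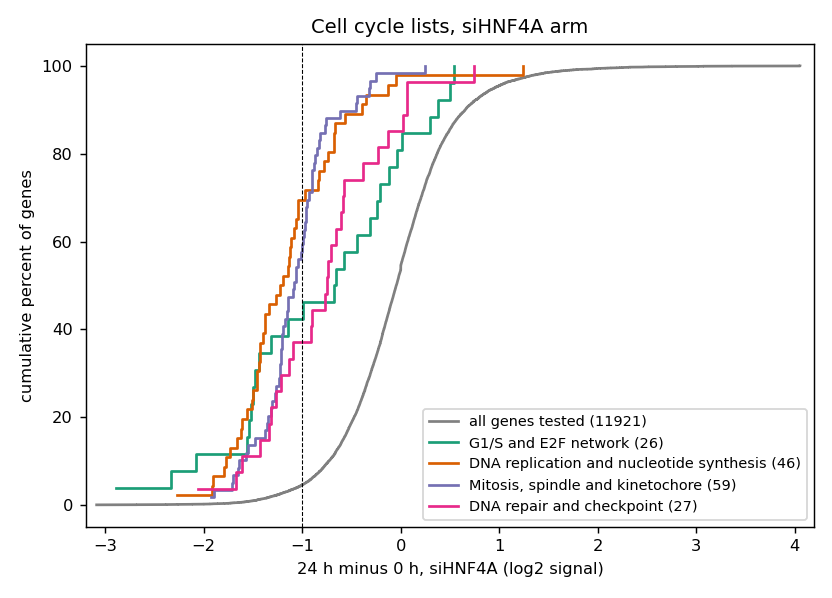
Cumulative percent of genes against the log2 difference of 24 h over 0 h in siHNF4A, for 4 cell cycle lists and for all 11921 genes tested, with the dashed line at 2-fold lower. The curve of all genes passes the dashed line at 4.61%, that of the mitosis list at 59.3% and that of the replication list at 69.6%.

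Promoters of both classes are shown because the genes fell together and letters known from cell cycle genes can be marked in them. Each was picked for a low difference among genes of its class that hold the letters named below for that class. Every promoter shown therefore carries its letters by choice. In replication genes the E2F-type letters GGCGGGAA or GCGGGAAA are marked, and in mitotic genes CCAAT, which NF-Y binds, and TTTGAA, the cell cycle homology region. Each is the 250 bases before the start on the strand of the gene, from RefSeq on GRCh38.p14. CDT1 lies at chr16:88803539-88803788 (plus strand), GINS2 at chr16:85688955-85689204 (minus), MCM7 at chr7:100101398-100101647 (minus), PLK1 at chr16:23678639-23678888 (plus), KIF11 at chr10:92592880-92593129 (plus) and MKI67 at chr10:128126424-128126673 (minus). Capitals mark these letters, or CAGACA, on either strand, so ATTGG is CCAAT and TTCAAA is TTTGAA read on the other strand.
CDT1: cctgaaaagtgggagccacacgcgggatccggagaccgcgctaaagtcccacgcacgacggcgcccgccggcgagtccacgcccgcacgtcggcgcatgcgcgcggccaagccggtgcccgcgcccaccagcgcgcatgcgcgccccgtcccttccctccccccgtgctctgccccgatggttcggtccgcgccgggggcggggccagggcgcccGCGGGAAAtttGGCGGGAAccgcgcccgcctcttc
GINS2: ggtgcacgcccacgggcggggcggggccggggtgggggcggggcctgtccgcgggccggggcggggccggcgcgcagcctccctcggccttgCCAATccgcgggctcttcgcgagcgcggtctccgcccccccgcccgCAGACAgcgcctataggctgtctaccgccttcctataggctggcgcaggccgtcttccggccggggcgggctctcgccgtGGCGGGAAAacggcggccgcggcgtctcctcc
MCM7: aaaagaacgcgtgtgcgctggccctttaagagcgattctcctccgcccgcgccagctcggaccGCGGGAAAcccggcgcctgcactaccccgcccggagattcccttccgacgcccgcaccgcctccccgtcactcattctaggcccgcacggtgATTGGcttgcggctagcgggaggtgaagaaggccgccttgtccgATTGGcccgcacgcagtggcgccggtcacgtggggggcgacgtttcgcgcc
PLK1: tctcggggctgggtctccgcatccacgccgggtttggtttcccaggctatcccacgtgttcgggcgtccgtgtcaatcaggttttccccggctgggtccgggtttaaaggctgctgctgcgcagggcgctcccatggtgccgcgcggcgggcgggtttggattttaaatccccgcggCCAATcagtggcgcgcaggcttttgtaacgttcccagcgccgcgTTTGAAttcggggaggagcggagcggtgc
KIF11: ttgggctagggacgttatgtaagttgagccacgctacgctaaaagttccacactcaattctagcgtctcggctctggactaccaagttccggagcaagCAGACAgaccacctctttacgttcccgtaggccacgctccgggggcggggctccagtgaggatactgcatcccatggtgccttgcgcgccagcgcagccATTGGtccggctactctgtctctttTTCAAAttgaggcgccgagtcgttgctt
MKI67: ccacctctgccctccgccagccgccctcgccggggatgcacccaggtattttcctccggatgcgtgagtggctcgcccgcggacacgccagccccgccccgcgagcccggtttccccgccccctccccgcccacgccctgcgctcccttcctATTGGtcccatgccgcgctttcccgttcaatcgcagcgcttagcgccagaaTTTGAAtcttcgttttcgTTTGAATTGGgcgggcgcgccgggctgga
MCM7, a helicase subunit, fell from 685.2 to 206.2 (-1.73). The E2F-type letters stood in 12 of 40 replication promoters (30%), in 6 of 52 mitosis promoters (11.5%) and in 5.66% of all 9736. CCAAT stood in 38 of 52 mitosis promoters (73.1%) and in 35.5% of all, and TTTGAA in 23 of 52 (44.2%) and in 8.6%. Both stood in 20 of the 52, and in 342 of all (3.51%). The shares describe how these classes of gene are built whether or not they change, and they were not tested.

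Hepatocyte gene lists differed in how many of their members were lower. Over all genes tested 4.5% were 2-fold higher and 4.61% lower, and by limma 3.18% rose and 3.14% fell. The 2-fold shares were 10.8% higher and 8.11% lower for plasma proteins. They were 2.86% each way for coagulation and complement. Of 37 measured plasma proteins 4 were 2-fold higher and 3 lower, while 2 rose and 9 fell by limma, with a median of -0.04. LEAP2 and HAMP, hepatic peptide hormones, fell from 60.4 to 13.4 (-2.17) and from 1505 to 537.0 (-1.49), and FGA, a fibrinogen chain, fell from 1726 to 691.9 (-1.32, or -0.79 averaged over all probe sets). SERPINA3, an acute-phase protease inhibitor, rose from 2767 to 7198 (1.38). Coagulation and complement genes had 1 of 35 members 2-fold higher, the inhibitor TFPI2 (20.2 to 102.6, 2.35), and 1 lower, SERPINC1, antithrombin (296.4 to 137.7, -1.11), with 2 rises and 1 fall by limma.

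Cytochromes P450 and drug conjugation genes had 9 of 43 measured members 2-fold lower and 2 higher, with a median of -0.45, and 10 falls and 1 rise by limma. AKR1B10, an aldo-keto reductase, was at 1394, 1512 and 185.2 in siHNF4A and at 3139, 2940 and 845.4 in siControl. Each siHNF4A signal was under the siControl signal of the same time, and the siHNF4A difference was -2.91 (limma standard error 0.17, adjusted p = 0.000164). ADH4 and ADH6, alcohol dehydrogenases, fell from 349.2 to 66.9 (-2.38) and from 386.2 to 100.0 (-1.95), and ADH4 stood at -0.94 when averaged over all probe sets. ALDH8A1, an aldehyde dehydrogenase, was at 63.5, 60.9 and 10.3 and fell by 2.30 or more. In bile acid, lipid and hepatic transport 6 of 27 members were 2-fold lower and 1 higher, with 3 falls and 1 rise by limma: the fatty acid binder FABP1 fell from 386.4 to 129.8 (-1.57, or -0.63 without _x_at and _s_at probe sets) and the lipid droplet protein CIDEB from 405.7 to 115.1 (-1.82), while PLIN2, a coat protein of lipid droplets, rose from 3681 to 8838 (1.26, or 0.42 averaged over all probe sets). In amino acid catabolism and the urea cycle 7 of 36 were 2-fold lower and 1 higher, with 4 falls and 1 rise by limma. DDC, which decarboxylates aromatic amino acids, was at 344.5, 329.3 and 53.9 (-2.68), and NAGS, which makes the activator of the urea cycle, went from 27.8 to 119.0 (2.10). In fatty acid oxidation 5 of 29 were 2-fold lower and none higher, with 5 falls and 1 rise by limma. PEX11A, a peroxisome division protein, fell from 42.0 to 3.3, below the floor, by 1.70 or more. It stood at -0.89 with the floor at the 60th percentile of signals and at -0.75 without _x_at and _s_at probe sets. In siControl 9 of 43, 4 of 27, 6 of 36 and 2 of 29 members of these lists were 2-fold lower, in the order given.

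Of 26 measured liver transcription factors and nuclear receptors 1 was 2-fold higher and 1 lower, and 1 fell by limma. CEBPA, a factor of hepatocyte differentiation, fell from 740.1 to 285.6 (-1.37), with a difference of -1.42 in siControl, or -1.80 from the siControl 1.5 h array. RORA, an orphan nuclear receptor, read 82.7 and 215.5 (1.38, or 0.43 averaged over all probe sets), and GATA4 read 114.5 and 58.0 (-0.98), without a pass.

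The glycolysis, gluconeogenesis and hypoxia list had 7 of 37 members 2-fold higher and 2 lower, with 6 rises and 2 falls by limma. The glucose transporter SLC2A1 rose from 1817 to 4373 (1.27, or 0.70 without _x_at and _s_at probe sets), as did HK1, a hexokinase (22.2 to 111.3, 2.33), and the hypoxia-responsive genes NDRG1 (1.66) and ADM (1.44). The 2 lower genes were ARRDC4 and TXNIP, related arrestin-domain proteins that curb glucose uptake and are induced by glucose. ARRDC4 was at 181.0, 147.2 and 21.3 in siHNF4A and at 97.6, 89.7 and 52.5 in siControl, the largest fall among genes above the floor on both arrays (-3.09). TXNIP was at 1053.7, 733.7 and 166.9 in siHNF4A and at 640.1, 489.9 and 515.4 in siControl. Its siHNF4A signal was above siControl at 0 and 1.5 h and below it at 24 h. Its difference was -2.66 in siHNF4A (limma adjusted p = 0.000303) and -0.31 in siControl, or 0.07 from the siControl 1.5 h array.

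In the ER and integrated stress list 3 of 27 members were 2-fold higher and 3 lower, with 6 rises and 4 falls by limma. DDIT4, an inhibitor of mTORC1, was at 362.1, 1110 and 1200 (1.73), already high at 1.5 h and 0.11 higher from there to 24 h. PPP1R15A, a phosphatase subunit of the stress response, rose from 54.8 to 150.8 (1.46). CRELD2, an ER chaperone-like protein, fell from 675.5 to 264.4 (-1.35).

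The leading genes outside these lists were of several kinds. CD3D, a subunit of the T cell receptor complex, was at 56.3, 59.2 and 483.4 in siHNF4A and at 39.8, 28.6 and 106.6 in siControl, while CD3E, its partner in T cells, read 12.5 and 18.5 in siHNF4A. CRABP2, a retinoic acid binder, rose from 24.0 to 193.7 (3.01), and TFF1, a secreted trefoil peptide, from 39.7 to 302.7 (2.93). SYT11, a synaptotagmin, was below the floor at 0 h and at 121.3 at 24 h, at least 3.23 higher. SPRY4-IT1, FGD2, SPINT1 and LBH rose likewise from below the floor by at least 2.39 to 2.55, and FGD2 stood at 0.39 when averaged over all probe sets. On the lower side CPN2, a carboxypeptidase N subunit, fell from 145.1 to 19.6 (-2.89, or -0.85 with the floor at the 75th percentile), LEAP2 as above, and PKDCC, a secreted kinase, from 283.0 to 59.5 (-2.25). MIA2 fell by 2.37 or more, to the floor, and TBX2 fell by 2.25 or more, to below it; averaged over all probe sets they stood at -0.61 and -0.73. CAPN10 and GUSBP14, the other 2 of the brightest genes at the floor at 24 h, did not pass, and at 1.5 h they already read 14.2 and 16.6.

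Whether the 24 h change differed between siHNF4A and siControl was tested by the limma term for the siRNA at 24 h. None of 11921 genes passed (0%), with 541 genes at an unadjusted p under 0.05, where 596 are given by chance, and a smallest adjusted p of 0.0781. Without a test, 716 genes (6.01%) differed by 2-fold or more between the arms' differences, 352 higher (2.95%) and 364 lower (3.05%) in siHNF4A. The smallest p was that of TXNIP, with an estimate of -2.28 and an adjusted p that ran from 8.01e-06 with log2(signal + floor) to 0.82 when all probe sets of a gene were averaged. ST3GAL3, a sialyltransferase, was at 72.0, 79.2 and 13.6 in siHNF4A and at 46.0, 38.6 and 75.8 in siControl, a difference of -2.40 against 0.72, and averaged over all its probe sets the siHNF4A difference was -0.32. HLA-F-AS1, an antisense transcript at the HLA-F locus, was at 80.6, 72.5 and 15.5 against 101.0, 61.6 and 82.0; its probe set may also detect the overlapping gene, so its identity is uncertain.

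Genes with the greatest upward gap between the arms were mostly dim. EEF1A2, a translation elongation factor isoform, was at 29.2, 16.9 and 117.9 in siHNF4A and at 26.1, 16.2 and 16.6 in siControl, and rose by limma in siHNF4A (2.01). RELT, a TNF receptor family member, rose from 23.6 to 68.7 (1.54), against a siControl difference of -0.85. MAF, RAC2, PRDM11, CYB561 and LOC100505715 had siHNF4A differences of 0.93 to 1.29 without a pass, with no signal above 66.2 on any array. On the other side, some gaps came wholly or partly from the siControl arm. DPP4, a dipeptidase of the cell surface, was at 210.2, 546.3 and 871.5 in siControl and at 242.8, 368.8 and 169.6 in siHNF4A. Its siControl difference was 2.05 from 0 h and 0.67 from 1.5 h. The siHNF4A signal of DPP4 at 24 h was the lowest of that arm, so part of its gap lay there. FOLR1, a folate receptor, was at 968.5, 1215 and 1135 in siHNF4A and at 617.3 and 1019 at 1.5 and 24 h in siControl. Only the siControl 0 h array was low for it, at 100.7, the array that stood apart in its control values. IKBKB-DT, a divergent transcript, was the only gene above the floor on all 4 arrays that was past 2-fold in opposite directions, at 40.2 and 14.6 in siHNF4A (-1.46) and at 13 and 35.4 in siControl (1.45, or 0.26 from the siControl 1.5 h array), close to the floor throughout.

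**Figure D5:**
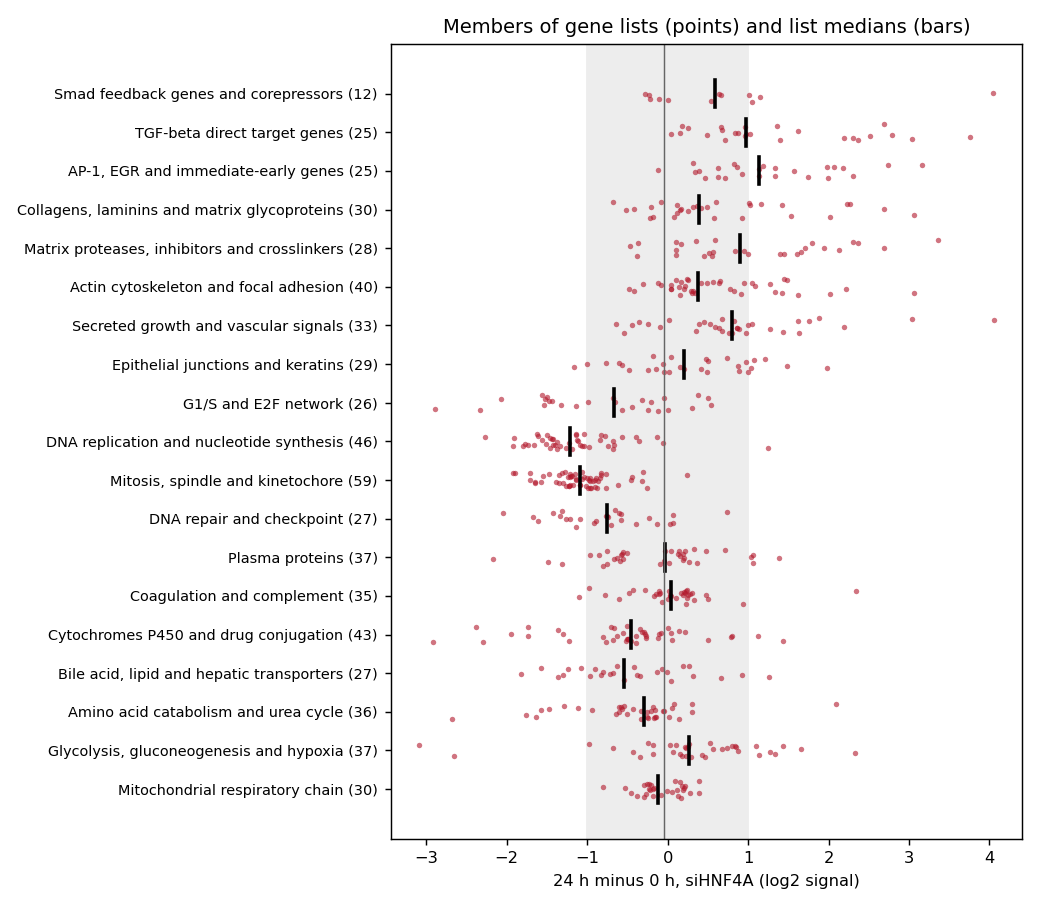
Log2 difference of 24 h against 0 h in siHNF4A, 1 array against 1 array, for the measured members (points; number in brackets) of 19 gene lists, with list medians as black bars, the grey band within 2-fold and the grey line at the median of all genes, -0.05. The replication and mitosis medians lie below -1, the immediate-early median above 1, and the respiratory chain members all lie within 2-fold.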

How the data were processed

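Total RNA of HepG2 cells was hybridised to 6 Affymetrix arrays, 1 for each of 2 siRNA treatments and 3 times. The deposited intensities are MAS5 signals on a linear scale; per the submitters' processing notes the authors used GCOS and MAS5 (5.0). Of 54675 probe sets, 41097 had 1 gene symbol in the platform annotation; 19775 genes remained after the probe set with the highest mean was taken, and 11921 with a mean above the floor of 12.9 were tested. The HNF4A level is not reported here. Gene lists, genes shown and alternatives were chosen with earlier results of these data known. Genes were named by a rule: the 12 highest and 12 lowest differences above the floor, the 6 brightest per direction with the other array at the floor, up to 5 members of each list, the 10 greatest gaps between arms per direction, and a few pathway genes. TGFB1, SMAD3, INHBB, KLF10, CCN2, IER3, SPRY4, DUSP6, FOS, ATF3, FN1, LOXL2, LOXL4, ACTA2, PKP2, VIM, RFC2, RFC3, RFC4, RFC5, BUB3, MCM7 and SLC2A1 were picked after their values were seen. Linear models with a trended eBayes prior came from limma (3.58.1, R 4.3.3), with Benjamini-Hochberg adjustment over all genes tested and a threshold of 0.05. The step was also run on simulated arrays, all drawn with limma's own spread. Such a run cannot check whether the 24 h arrays vary like the others. Promoter sequences came from RefSeq (GRCh38.p14), for 9736 of the genes tested. Figures used Python 3.11.15 and matplotlib 3.10.9. No label states that the RNAs came from separate transfections. Alternatives changed the scaling, the floor, the probe set, the filter, the reference array, the threshold and the fit. The number of arrays limits the precision.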

Additional observations from a re-analysis of the deposited data

How the results depend on the processing

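No list median above 0.5 in size changed sign under the 10 settings run, and of 5 genes past 2-fold that did, CAPN10 stood at 0.51 without probe sets ending in _x_at or _s_at, RFC5 at -0.44 with averaged probe sets, and JUNB, GADD45B and NRG1 at -0.26, -0.64 and -0.36 with the 1.5 h array as the reference. Of 144 named genes past 2-fold, 84 stayed so under every one of these settings that included them and 60 did not under at least 1: 33 with averaged probe sets, 26 from the 1.5 h array, 15 without _x_at and _s_at probe sets, 11 with log2(signal + floor), 9 and 5 with the floor at the 75th and 60th percentile, 6 with quantile normalization and 1 with median scaling. Of 1727 gene values under these settings 1439 moved by no more than their limma standard error. The count of 537 genes higher and 550 lower became 227 and 221 when the floor was the 75th percentile, 353 and 365 when all probe sets of a gene were averaged, 1391 and 1773 at 1.5-fold and 150 and 81 at 3-fold; quantile normalization, median scaling, the other floors, the pseudocount, no filter, the single probe set subset and the 1.5 h reference kept each count within 1.5 times. The limma calls, 379 and 374, became 227 and 228 with arrays scaled to the same median, 187 and 149 at the 75th percentile floor, 678 and 708 with log2(signal + floor), 187 and 163 for averaged probe sets, 101 and 93 without _x_at and _s_at probe sets, and 0 and 0 without the trend; without a filter the falls numbered 10. Without _x_at and _s_at probe sets, where fewer members were measured, 2-fold counts became 9 of 15 for immediate-early genes, 6 of 19 for collagens and matrix glycoproteins and 6 of 21 for secreted signals. The difference between arms had 0 calls in limma's test, 4 with a floor at the 40th percentile (DPP4, EGR1, ST3GAL3 and TXNIP), 24 with log2(signal + floor), 639 without a filter and 716 by the 2-fold rule without a test. The causes of these shifts in the counts were not tested. No paired analysis was possible because the labels give no replicate numbers and each group had 1 array.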

Other observations

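Some lists had few or no members past 2-fold over the 24 h in siHNF4A cells. Of 30 measured genes of the mitochondrial respiratory chain none reached 2-fold and none passed limma over all genes, with a median of -0.12 and a range from -0.80 (CYC1) to 0.40 (COX6C). Of 26 ribosome biogenesis genes none reached 2-fold and 2 fell, NOP58 (2556 to 1480, -0.79) and NHP2 (1484 to 816.3, -0.86), with a median of -0.26 against -0.05 over all genes. Small differences in this list mostly went the same way, with 22 of 26 lower (84.6%), against 53.5% of all genes. Its siControl median was -0.29. Metallothioneins, which bind zinc and copper, had a median of 0.43, with 6 of 7 measured members higher. MT1H (1.17), MT1X (0.98) and MT2A (0.83) rose. Without _x_at and _s_at probe sets 1 member was measured, at -0.49. The rises thus rest on probe sets that can match several genes or transcripts. Of 23 cholesterol and fatty acid synthesis genes FASN, fatty acid synthase, alone reached 2-fold (-1.17, or -0.72 averaged over all probe sets), without a pass. FASN was at 535.8, 285.3 and 237.4 at 0, 1.5 and 24 h, a difference of -0.27 from 1.5 h. Of 26 interferon-response genes 3 were 2-fold higher and 1 lower; IFITM1 (1.41) and OAS1 (1.33) rose. In the BCL2 family PMAIP1, a proapoptotic member, and MCL1, an antiapoptotic one, rose from 97.0 to 268.2 (1.47) and from 1741 to 3493 (1.00), and none of 17 measured members was 2-fold lower.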
